A study of Mus musculus with 6 samples.

Results

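The genes described here encode amino acid transporters and their relatives: every gene of the deposited table named as a member of the solute carrier families SLC1, SLC3, SLC6, SLC7, SLC36, SLC38 and SLC43, together with Slc16a10. Of 14408 genes listed, 43 fit these names. They were compared in RNA labelled as left ventricle from 6 libraries, 3 of mice given PBS and 3 of mice given L-proline. All mice were male C57BL/6J, 8 weeks old at the start, and all had been put through the same model of diastolic heart failure (preserved ejection fraction), made by a high-fat diet with the nitric oxide synthase inhibitor L-NAME in the drinking water at 0.5 g/L over 8 to 12 weeks. L-proline was then injected into the peritoneum at 300 mg/kg each day, or PBS as vehicle, over 4 to 8 weeks. No group without the heart failure model was among the samples used here, so all comparisons are between treated and vehicle mice that share the diet and L-NAME. Whether each library is a separate animal is not stated in the labels. The p-values therefore reflect variation among these libraries, which may be technical.

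Cells take up amino acids through carriers with overlapping substrates. Sodium-coupled carriers of the SLC1, SLC6 and SLC38 families concentrate amino acids in the cell, and exchangers of the SLC7 family trade those amino acids for others, such as leucine, arginine or cystine. Several SLC7 light chains reach the cell surface only when joined by a disulfide bond to the heavy chain encoded by Slc3a2 (CD98). When amino acids run short, the kinase GCN2 leads to translation of the transcription factor ATF4, and some of these carriers are known ATF4 targets. Proline itself enters cells mainly through the system A carrier SNAT2 (Slc38a2), the proton-coupled carriers of SLC36 and some SLC6 carriers. The names cover more than the plasma membrane and more than amino acids. Slc36a1, Slc38a7 and Slc38a9 are known at the lysosome, Slc6a8 carries creatine, Slc6a2 and Slc6a4 carry monoamines and Slc43a3 carries purine bases. Slc7a6os, named for its place beside Slc7a6, encodes no carrier.

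Library totals recovered from the values were 34990473 to 37498030 fragments, and the tested transporter genes were backed by 109 to 19722 fragments per library. Most markers of heart muscle were near 0 or had no entry, against the labelled tissue. Of 13 cardiomyocyte markers 7 were listed, with a median over their means of 0.0318 FPKM (fragments scaled by gene length and library total). Myh6, Myl3, Actc1, Pln, Mybpc3 and Actn2 had no entry. Only Tnnt2 and Nkx2-5 had a mean of at least 1 FPKM, and Ttn had group means of 0.00461 (PBS) and 0.00475 (L-proline). Whether the label describes the material was not tested. Tnnt2 fell from 32.0 ± 0.777 to 14.5 ± 1.51 FPKM (adjusted p = 0.000326), while Nkx2-5 did not pass. Some markers of other cell types changed as well. The summed level of 7 fibroblast markers was 2052 to 2096 FPKM in PBS and 2774 to 3140 in L-proline, most of it from Col3a1, Col1a2 and Col1a1, which rose. Pdgfra of the same list fell (7.84 to 5.97). Ddr2 (23.2 and 19.8) and Postn (58.8 and 86.9) had overlapping groups and, like Dcn, did not pass. Of 9 endothelial markers 6 were listed, and the only one tested, Fabp4, fell from 5.93 to 2.55. Of 9 T and NK cell markers 2 were listed, and the only one tested, Ccl5, rose from 31.8 to 82.4. Cd3e, Cd3d, Cd4, Trac, Nkg7, Gzmb and Klrb1c had no entry, so Ccl5 does not stand for T or NK cells here. Summed mesothelial and epithelial markers went from 51.2 to 52.6 down to 26.2 to 27.5, and the neural marker Tubb3 fell from 30.6 to 15.3. The sums overlapped for macrophage markers (19.7 to 22.2 and 21.8 to 25.4) and for pericyte and smooth muscle markers (944 to 1059 and 852 to 1049.8). The part of these shifts in the transporter results was not tested. In bulk RNA, fewer cells of a type and less RNA per cell cannot be told apart.

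Among the transporters L-proline was accompanied mainly by increases. Genes with a mean of at least 1 FPKM over the 6 libraries were tested on log2(FPKM + 1) with limma, and "rose" and "fell" are used for an adjusted p under 0.05 over all genes tested. Of 25 tested members 9 rose, which is 36% against 7.50% of all 10500 tested genes. A single member, Slc7a2, fell, which is 4% against 12.1% of all tested genes. The genes that rose were Slc7a5, Slc1a3, Slc7a1, Slc1a4, Slc6a9, Slc3a2, Slc6a8, Slc7a6os and Slc43a2. The median log2 fold change was 0.16 over the tested members and -0.06 over all tested genes. Leaving out Slc7a6os, 8 of 24 tested carriers or carrier subunits rose. The number that rose was 5 without PBS 3 and 6 without PBS 1, and it was 7 to 10 under all other alternatives run. With quantile normalization 1079 of all genes rose and 1015 fell, against 788 and 1268 on the deposited scale, while 10 members rose and 1 fell.

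**Figure D1:**
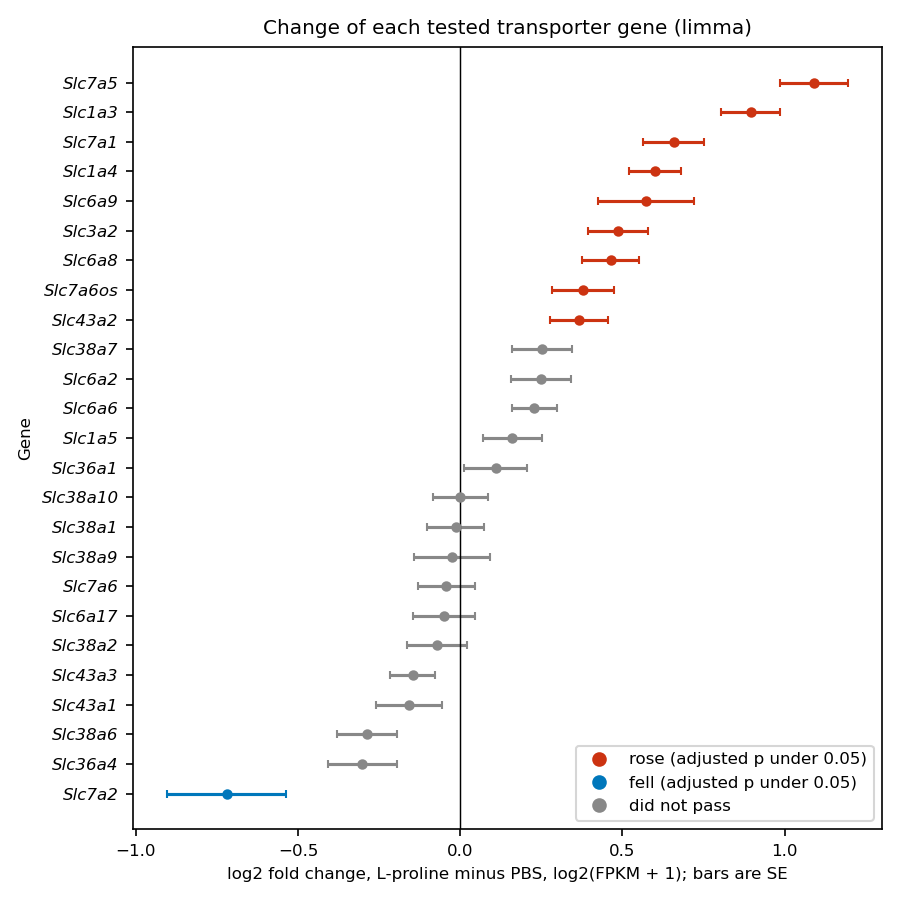
Each point is the log2 fold change of a tested gene (x axis, L-proline minus PBS on log2(FPKM + 1), bars are SE, n = 3 per group), ordered from the largest increase at the top. The 9 genes in red rose, Slc7a2 in blue fell, and the grey genes did not pass.

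The separation of groups gave a similar picture. All 3 L-proline values lay above all 3 PBS values in 12 of the 25 tested members, against 16.0% of tested genes. They lay below them in 5, against 24.0% of tested genes. The 5 were Slc7a2, Slc36a4, Slc38a6, Slc43a1 and Slc43a3. Among the 12 were the 9 genes that rose, with Slc6a6, Slc38a7 and Slc6a2.

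The largest change among the tested members was in Slc7a5, which encodes LAT1, the exchanger that brings leucine and other large neutral amino acids into the cell. Its level was 9.94, 11.0 and 11.7 FPKM in PBS 1, 2 and 3 and 23.8, 21.7 and 27.6 in L-proline 1, 2 and 3. The lowest L-proline library was thus well above the highest PBS library, with a ratio of group means of 2.24. The log2 fold change was 1.09 ± 0.10 (limma, adjusted p = 0.000541), and 64 of the 10500 tested genes had a larger increase. Slc7a5 passed in all 14 alternatives run, with an adjusted p of 0.000357 to 0.00390.

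Slc3a2, the heavy chain that LAT1 needs, rose less. Its level was 15.1, 14.5 and 14.5 FPKM in PBS and 20.7, 18.9 and 23.6 in L-proline, with no overlap between groups. The log2 fold change was 0.49 ± 0.09 (adjusted p = 0.00960, 0.0512 without PBS 3, 0.00796 to 0.0512 over the alternatives). The level of Slc7a5 relative to Slc3a2 therefore also changed. It was 0.657, 0.759 and 0.807 in the PBS libraries and 1.15, 1.15 and 1.17 in the L-proline libraries, so that the light chain went from below to above the heavy chain on the FPKM scale.

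Of the other light chains that pair with Slc3a2, only Slc7a6 was abundant enough to be tested, and it did not pass. Slc7a6, which encodes the exchanger y+LAT2 for cationic and neutral amino acids, was 3.79 ± 0.200 FPKM (mean ± SD, n = 3) in PBS and 3.66 ± 0.283 in L-proline, and the groups overlapped (log2 fold change -0.04 ± 0.09, adjusted p = 0.758). Slc7a7, its relative y+LAT1, lay under the filter at 0.853 ± 0.0295 and 0.730 ± 0.0780. Slc7a11, the cystine/glutamate exchanger xCT, also lay under the filter; it was higher in every L-proline library, with a ratio of group means of 2.77, and is described with the low genes. Over these 4 light chains the summed level went from 15.7 ± 0.977 to 29.4 ± 3.02 FPKM, and the share of Slc7a5 in it from 69.0% ± 1.31 to 82.8% ± 1.62 (SD, n = 3).

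Slc43a2 (LAT4), a carrier that releases or takes up branched-chain amino acids without an exchange partner, rose as well. It was 2.29, 2.55 and 2.34 FPKM in PBS and 3.12, 3.36 and 3.64 in L-proline, without overlap. The log2 fold change of 0.37 ± 0.09 passed narrowly (adjusted p = 0.0243), and single libraries decided the call. The adjusted p became 0.104 when PBS 1 was left out, 0.109 for PBS 3, 0.0606 for L-proline 2 and 0.0583 for L-proline 3 (0.0124 to 0.109 over the alternatives). Its relative Slc43a1 (LAT3) did not follow, at 1.24 ± 0.0554 and 1.02 ± 0.197 FPKM (adjusted p = 0.299), with the L-proline libraries below the PBS libraries. The purine base carrier Slc43a3 was 17.7 ± 0.545 and 15.9 ± 0.491 (adjusted p = 0.174).

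**Figure D2:**
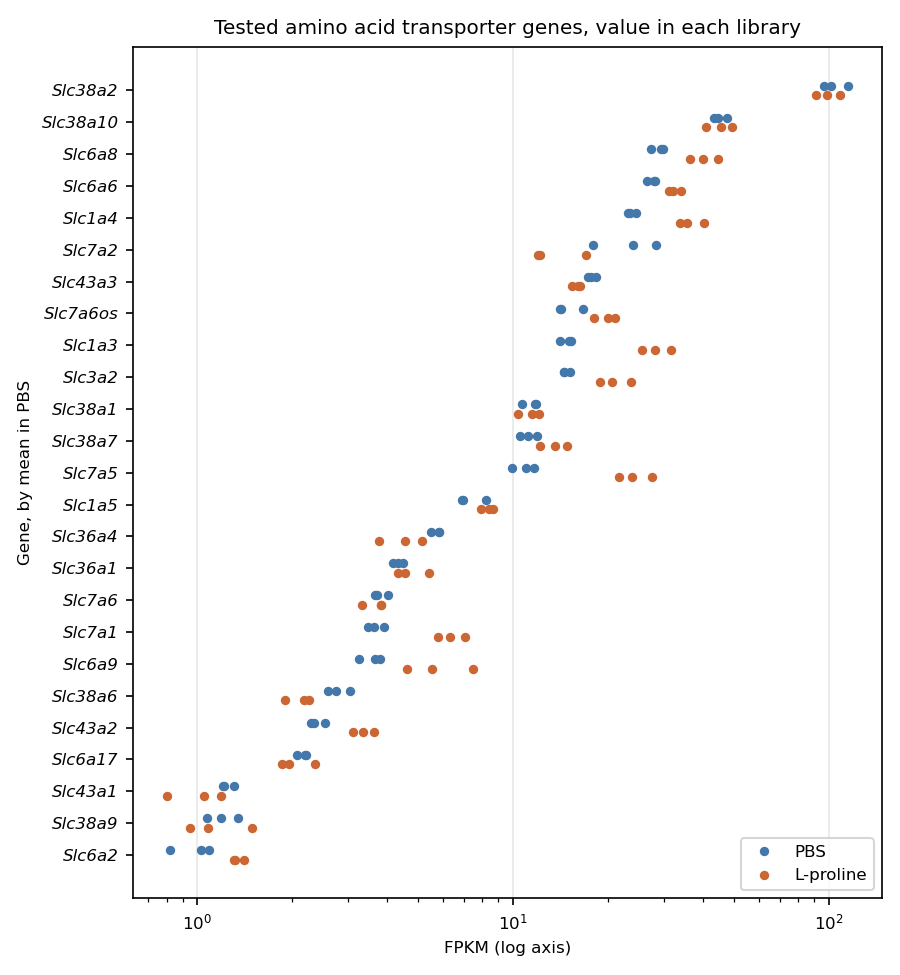
Each point is the FPKM value of a tested gene in 1 library (x axis, log scale), PBS in blue and L-proline in orange, with genes ordered by their PBS mean. Slc38a2 stands highest at 91.2 to 115 FPKM with overlapping groups, while Slc7a5 and Slc1a3 have L-proline values far to the right of PBS.

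The cationic amino acid carriers moved in opposite directions. Slc7a1 (CAT-1), a widely expressed carrier of arginine and lysine and a known ATF4 target, was 3.64, 3.90 and 3.47 FPKM in PBS and 6.30, 5.77 and 7.06 in L-proline. Every L-proline library exceeded every PBS library, and the log2 fold change was 0.66 ± 0.09 (adjusted p = 0.00327, 0.00257 to 0.0236 over the alternatives). Slc7a2 (CAT-2), whose product supplies arginine to nitric oxide synthase and arginase in activated cells, was 28.4, 17.9 and 24.0 FPKM in PBS and 17.0, 12.2 and 12.0 in L-proline. The groups did not overlap, but the highest L-proline library came close to the lowest PBS library.

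Slc7a2 had the widest spread between PBS libraries of all tested members, with a coefficient of variation of 22.7% against a median of 5.74%. Its log2 fold change was -0.72 ± 0.18 (adjusted p = 0.0295). Leaving out PBS 1 gave an adjusted p of 0.0995, PBS 3 gave 0.106, L-proline 2 gave 0.0943 and L-proline 3 gave 0.0828, and it was 0.0525 with no filter on low values (0.00659 to 0.106 over the alternatives). Slc7a1 relative to Slc7a2 was 0.128, 0.218 and 0.145 in PBS and 0.370, 0.474 and 0.588 in L-proline. In all 6 libraries Slc7a2 thus remained the more abundant of the pair per length. The sum of the pair overlapped between groups, at 27.1 ± 5.16 and 20.1 ± 2.84 FPKM. Slc7a3 (CAT-3), the third cationic carrier, was at most 0.0778 FPKM in all libraries.

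Of the SLC1 family, Slc1a3 and Slc1a4 rose. Slc1a3 encodes the glutamate and aspartate carrier EAAT1 (GLAST), best known from astrocytes. It was 15.3, 14.1 and 15.0 FPKM in PBS and 31.6, 25.6 and 28.1 in L-proline, so its level rose 1.92-fold with no overlap. The log2 fold change was 0.90 ± 0.09 (adjusted p = 0.000726), and 103 tested genes had a larger increase. The glial markers Gfap and S100b had group means of at most 0.0554 FPKM in these libraries.

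Slc1a4 (ASCT1), an exchanger of alanine, serine, cysteine and threonine that is also reported to carry proline, was 23.2, 24.5 and 23.5 FPKM in PBS and 33.8, 35.7 and 40.2 in L-proline. All L-proline libraries were higher, and the log2 fold change was 0.60 ± 0.08 (adjusted p = 0.00253, 0.00134 to 0.0194 over the alternatives). Its relative Slc1a5 (ASCT2), the main glutamine exchanger, was 6.93, 8.21 and 6.89 in PBS and 7.91, 8.40 and 8.62 in L-proline. These groups overlapped and the gene did not pass (log2 fold change 0.16 ± 0.09, adjusted p = 0.243). Slc1a4 relative to Slc1a5 was 2.99 to 3.40 in PBS and 4.25 to 4.66 in L-proline.

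In the SLC6 family of sodium- and chloride-coupled carriers, Slc6a8 and Slc6a9 rose. The creatine carrier gene Slc6a8 was 29.4, 29.9 and 27.4 FPKM in PBS and 40.1, 36.3 and 44.7 in L-proline. The groups were apart, with a log2 fold change of 0.46 ± 0.09 (adjusted p = 0.00999, 0.0576 without PBS 3, 0.00713 to 0.0576 over the alternatives). Slc6a9, which encodes the glycine carrier GlyT1, was 3.25, 3.65 and 3.78 in PBS and 5.55, 4.61 and 7.49 in L-proline.

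The spread of Slc6a9 in L-proline, a coefficient of variation of 25.0%, was the widest of all tested members, and its call was correspondingly narrow. The log2 fold change was 0.57 ± 0.15 (adjusted p = 0.0314). On leaving out PBS 1 the adjusted p was 0.113, for PBS 2 it was 0.0649, for PBS 3 it was 0.0857, and it was 0.0568 with no filter on low values (0.0197 to 0.113 over the alternatives). Slc6a9 overlaps the gene Ccdc24 in the GRCm38.p6 gene table, and the sources used here do not give whether fragments were assigned by strand. Group means of Ccdc24 were 1.71 ± 0.224 (PBS) and 1.79 ± 0.267 FPKM (L-proline; adjusted p = 0.829).

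The taurine carrier gene Slc6a6 lay just outside the threshold. It was 26.6, 28.1 and 27.9 FPKM in PBS and 32.2, 31.2 and 34.0 in L-proline, without overlap, and its log2 fold change of 0.23 ± 0.07 had an adjusted p of 0.0513. Under other settings this ran from 0.0343 with median-of-ratios scaling to 0.187 without PBS 1. Slc6a2, the noradrenaline carrier of sympathetic nerve endings, was 0.977 ± 0.138 and 1.34 ± 0.0541 (adjusted p = 0.0961), higher in all L-proline libraries. Slc6a17, a vesicular carrier of proline, leucine and glycine in neurons, was 2.16 ± 0.0721 and 2.06 ± 0.272 (adjusted p = 0.740), with overlap.

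None of the 6 tested SLC38 genes and neither of the 2 tested SLC36 genes passed. Most genes did not, as 7.50% of all tested genes rose and 12.1% fell. Slc38a2 (SNAT2), a main route of proline uptake and a known ATF4 target, was the most abundant member. It was 102, 96.6 and 115 FPKM in PBS and 108, 98.7 and 91.2 in L-proline. The groups overlapped, and the log2 fold change was -0.07 ± 0.09 (adjusted p = 0.614, 0.287 to 0.998 over the alternatives). The level of Slc7a5 relative to Slc38a2 went from 0.0974 to 0.114 in PBS to 0.219 to 0.302 in L-proline.

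The other SLC38 genes showed small differences in either direction. Slc38a10, at 45.2 ± 2.15 and 45.3 ± 4.34 FPKM, and the glutamine carrier Slc38a1 (SNAT1), at 11.4 ± 0.667 and 11.3 ± 0.901, had nearly equal group means (adjusted p = 0.997 and 0.922). Slc38a7, a lysosomal carrier of glutamine and asparagine, was 11.2 ± 0.691 and 13.6 ± 1.32, higher in all L-proline libraries (adjusted p = 0.0918). Slc38a6 was 2.79 ± 0.223 and 2.11 ± 0.188, lower in all L-proline libraries (log2 fold change -0.29 ± 0.09, adjusted p = 0.0646). Slc38a6 overlaps Trmt5, which was 4.83 ± 0.249 and 3.99 ± 0.848 (adjusted p = 0.223). Slc38a9, a lysosomal arginine sensor for the growth kinase mTORC1, was 1.20 ± 0.138 and 1.17 ± 0.283 (adjusted p = 0.894).

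In the SLC36 family, which includes proton-coupled carriers of proline, glycine and alanine, neither tested gene passed. Slc36a1 (PAT1) was 4.34, 4.17 and 4.47 FPKM in PBS and 4.54, 4.32 and 5.43 in L-proline, with overlap (log2 fold change 0.11 ± 0.10, adjusted p = 0.449). Slc36a4 (PAT4), a carrier of proline and tryptophan, was 5.84, 5.51 and 5.85 in PBS and 5.14, 4.56 and 3.77 in L-proline. All L-proline libraries were lower, but the gene did not pass (log2 fold change -0.30 ± 0.11, adjusted p = 0.0835, 0.0281 without L-proline 1 and 0.235 at most over the alternatives). Of the 14 proline carriers written down as a list, 9 were listed in the table and 6 were tested. Of these 6, 1 (Slc1a4) rose and 0 fell, against 7.50% and 12.1% of all tested genes. Their median log2 fold change was -0.03.

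On the list of amino acid response targets, 5 of 9 tested members rose and 0 fell, against 7.50% and 12.1% of all tested genes. Slc1a4, Slc38a1 and Slc38a2 are on both this list and the proline carrier list, so the lists are not separate sets. The 5 were Slc7a5, Slc7a1, Slc1a4, Slc6a9 and Slc3a2, and Slc1a5, Slc38a1, Slc38a2 and Slc43a1 did not pass. The median log2 fold change of the 9 was 0.49. Both lists were drawn up with earlier results of these data known, so their counts are descriptions.

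**Figure D3:**
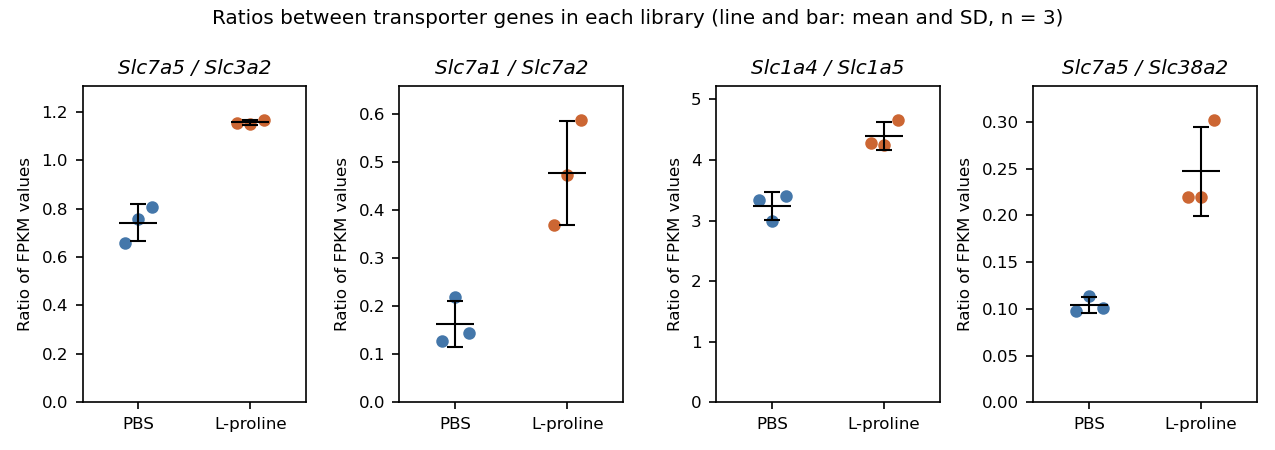
Each point is the ratio of the FPKM values of 2 transporter genes in 1 library (y axis, from 0), with the mean and SD of 3 libraries per group. All 4 ratios are higher in every L-proline library than in every PBS library, as for Slc7a1 over Slc7a2 at 0.370 to 0.588 against 0.128 to 0.218.

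These 4 ratios between members were picked with their values in view, and the groups were apart in each. The exact two-sided permutation test over the 6 libraries gave p = 0.1 for all 4, and 0.1 after Benjamini-Hochberg adjustment over them, which is the smallest p that 3 against 3 can give. The summed level of all 43 genes went from 379 to 402 FPKM in PBS to 429 to 464 in L-proline. Slc38a2 alone made up 25.5% to 28.6% of that sum in PBS and 19.7% to 23.8% in L-proline. L-proline 3 held the highest value of its group for 8 of the 9 genes that rose, and L-proline 2 the lowest for 6. The spread was also wider in L-proline, with a median coefficient of variation over the tested members of 9.71% against 5.74% in PBS.

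Slc7a6os was 14.2, 14.1 and 16.7 FPKM in PBS and 18.1, 20.0 and 21.1 in L-proline, without overlap. It encodes a homolog of a yeast factor for nuclear import of RNA polymerase II. Its log2 fold change was 0.38 ± 0.09 (adjusted p = 0.0280), and the adjusted p became 0.112 on leaving out PBS 1, 0.0842 for PBS 2, 0.0762 for L-proline 2 and 0.0704 for L-proline 3 (0.0147 to 0.112 over the alternatives). A gap of 1723 bases (GRCm38.p6) separates it from Slc7a6, which did not rise.

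The remaining 18 members had a mean under 1 FPKM and were not tested. Of these, 13 were under 0.1 FPKM, with at most 21 fragments in any library. Slc7a11, the carrier that supplies cystine for glutathione and whose loss of function promotes ferroptosis, was among the best supported. It had 110, 89 and 35 fragments in PBS 1, 2 and 3 (0.313, 0.264 and 0.102 FPKM) and 326, 150 and 163 in L-proline 1, 2 and 3 (0.947, 0.457 and 0.472 FPKM). All L-proline libraries were higher, and L-proline 1 stood well above the other two. In the alternative fit that kept genes with a mean of at least 0.1 FPKM and added 0.1 FPKM before the logarithm, its log2 fold change was 1.15 ± 0.35 with an adjusted p of 0.0582. In that fit 17.8% of all genes passed and 0 of the 5 members that it added did, counting Slc1a6, Slc3a1, Slc7a4, Slc7a7 and Slc7a11.

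Among the low genes 2 were higher in all L-proline libraries, against 10.7% of the genes under the filter. Besides Slc7a11 this was Slc6a7, the brain proline carrier PROT, with 3, 5 and 7 fragments in PBS and 21, 14 and 14 in L-proline. A further 3 were lower in all L-proline libraries, against 15.3% of the genes under the filter. These were Slc1a6, the glutamate carrier EAAT4 (0.527, 0.522 and 0.561 FPKM in PBS; 0.294, 0.213 and 0.469 in L-proline), Slc7a7, and Slc6a15, a carrier of proline and branched-chain amino acids, with 5, 4 and 3 fragments in PBS and 2, 2 and 1 in L-proline. Slc7a7 overlaps Oxa1l and Slc3a1 overlaps Prepl, both more abundant, at 31.5 ± 1.77 and 17.8 ± 1.44 FPKM in PBS, so the assignment of their fragments is uncertain.

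The rest of the low genes had overlapping groups. Slc3a1, the heavy chain of the kidney cystine carrier, had 41 fragments over the 3 PBS libraries and 51 over the L-proline libraries, Slc7a4 had 39 and 63, and Slc16a10, a carrier of aromatic amino acids, had 36 and 45. Slc7a3 had 32 and 14 and the glutamate carrier Slc1a2 had 46 and 33. The monoamine carrier Slc6a4 and the genes Slc1a7, Slc6a5, Slc6a13, Slc6a19, Slc38a3, Slc38a4 and Slc38a8 had 3 to 26 fragments over either group. Slc6a13, Slc6a19 and Slc38a8 had 0 in at least 1 library, which allows up to 3 by counting error alone. A further 22 protein-coding genes with these family names, Slc1a1, Slc7a8, Slc38a5, Slc36a2, Slc6a20a and Slc6a20b among them, had no entry in the deposited table as used here.

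**Figure D4:**
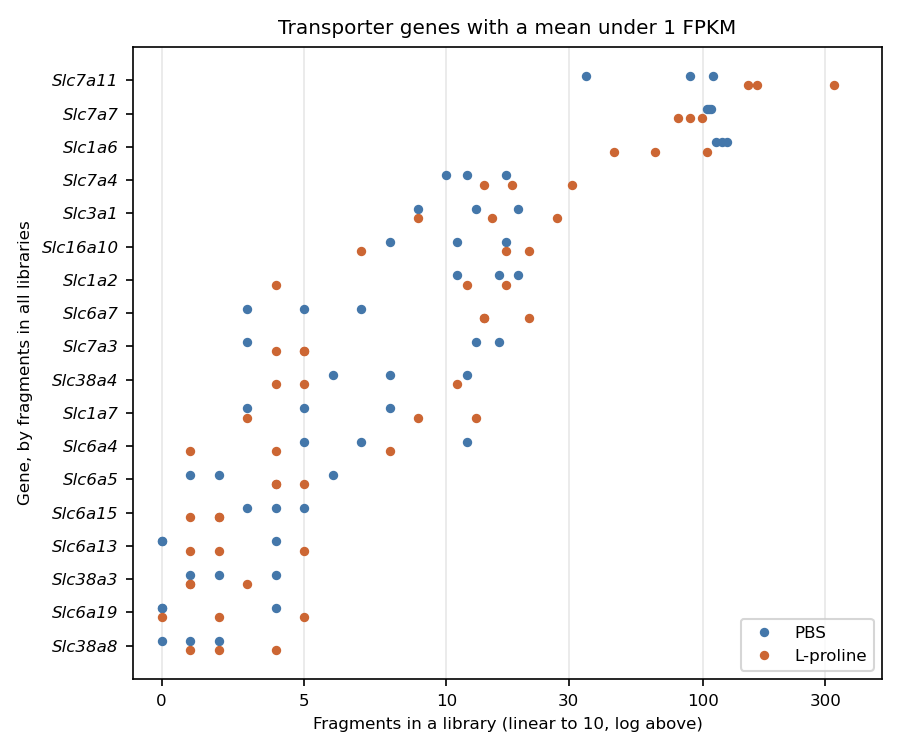
Each point is the number of fragments of a gene in 1 library (x axis, linear up to 10 and logarithmic above) for the 18 genes with a mean under 1 FPKM, PBS in blue and L-proline in orange. Slc7a11 and Slc6a7 have all L-proline points to the right of all PBS points, while most of the others rest on fewer than 30 fragments per library and overlap.

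Promoter sequence was compared because several of the genes that rose are known ATF4 targets. The RefSeq promoter table (build GRCm38.p6, 250 bases before to 50 bases from each annotated start) held 30 of the 43 genes and 7 of the 9 that rose; it held none for Slc7a5 or Slc6a8. The core of the C/EBP-ATF response element was searched as TGATGNAA and the core of the antioxidant response element as TGACNNNGC, on both strands. Shares are given per window and members are counted per gene, so they cannot be compared directly. The 30 members had 45 windows. The first was found in 3.97% of all 32851 windows and in 3 members, Slc7a11, Slc1a4 and Slc7a7, of which only Slc1a4 rose. The second was found in 12.4% of windows and in 7 members, of which Slc7a1 and Slc6a9 rose. The 3 members with the first core are shown with 3 others that rose, 5′ to 3′ on the gene's strand, with matches to either core in capitals.
Slc7a11, chr3:50443614-50443713, minus strand: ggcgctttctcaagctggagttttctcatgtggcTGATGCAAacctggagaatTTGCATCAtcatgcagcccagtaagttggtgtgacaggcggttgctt
Slc1a4, chr11:20332708-20332807, minus strand: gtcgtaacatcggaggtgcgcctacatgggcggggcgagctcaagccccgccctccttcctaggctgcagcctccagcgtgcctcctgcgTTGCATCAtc
Slc7a7, chr14:54417937-54418064, minus strand: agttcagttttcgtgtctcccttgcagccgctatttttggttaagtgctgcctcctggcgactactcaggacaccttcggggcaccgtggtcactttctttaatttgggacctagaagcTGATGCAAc
Slc7a1, chr5:148399905-148400004, minus strand: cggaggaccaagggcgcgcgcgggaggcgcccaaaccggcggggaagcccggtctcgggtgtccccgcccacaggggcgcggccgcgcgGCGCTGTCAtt
Slc3a2, chr19:8713898-8713997, minus strand: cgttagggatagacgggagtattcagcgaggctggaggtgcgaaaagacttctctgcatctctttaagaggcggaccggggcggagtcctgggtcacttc
Slc1a3, chr15:8710808-8710907, minus strand: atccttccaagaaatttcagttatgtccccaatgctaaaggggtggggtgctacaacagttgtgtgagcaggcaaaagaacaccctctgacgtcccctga

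Slc7a11 carries the core in both orientations, starting 66 and 47 bases before the annotated start, and Slc1a4 carries it across the start, from base -4 to base 4. Slc7a7 carries the same letters from base -1 to base 7, with a further match outside the printed stretch. The expression values beside these letters differ: Slc1a4 rose, Slc7a11 was higher in all L-proline libraries under the filter, and Slc7a7 was lower in all. Slc7a1 has the second core from base -11 to base -3, and neither core was found in the windows of Slc3a2 and Slc1a3. The last bases of the full window, all after the start, were found in a GENCODE M21 transcript of the gene for 4 of the 6 windows. They were not found for Slc7a7 and Slc1a3. The bases right at the start were not checked. A match is a description of these letters only.

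Of 30 regulators and targets of the amino acid response outside the carriers, 28 were tested, 15 rose, 0 fell and 13 did not pass (1 fell without L-proline 1), against 7.50% and 12.1% of all tested genes that rose and fell, with a median log2 fold change of 0.47. Mthfd2, a mitochondrial folate enzyme, had a log2 fold change of 1.80 ± 0.10, Chac1, which breaks down glutathione, 1.86 ± 0.11, asparagine synthetase (Asns) 1.60 ± 0.11 and the pseudokinase gene Trib3 2.98 ± 0.21. All 4 exceed Slc7a5, whose log2 fold change was 1.09. Lower means in L-proline were found for Eif2ak4, the GCN2 kinase gene (12.1 ± 2.49 and 8.54 ± 2.12 FPKM, adjusted p = 0.119), Nupr1 (75.5 and 70.9) and Gcn1 (13.5 and 12.9), each with overlapping groups; these 3 were named after their values were seen.

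Most genes by which mTORC1 senses amino acids did not pass. Of 42 genes 40 were tested, 5 rose, 3 fell and 32 did not pass, where 7.50% of all tested genes rose and 12.1% fell, and the median log2 fold change was 0.04. Those with the smallest p were Flcn, the folliculin gene, which went from 2.79 ± 0.13 to 4.79 ± 0.573 FPKM (adjusted p = 0.00501), Lamtor1, a lysosomal anchor of the Rag proteins (38.4 ± 4.32 to 55.3 ± 4.36, adjusted p = 0.00981), Rragc, a Rag protein (30.0 ± 1.16 to 37.5 ± 1.42, adjusted p = 0.0171), and Kptn, a subunit of the KICSTOR complex, which fell from 5.53 ± 0.483 to 3.56 ± 0.338 (adjusted p = 0.00924). These counts depended on single libraries: without PBS 1 there were 2 that rose and 1 that fell, without PBS 2 there were 3 and 2, without PBS 3 there were 2 and 0, and without L-proline 1 there were 6 and 5.

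Amino acid carriers outside these families, mostly of mitochondria and lysosomes, likewise did not pass in most cases. Of 22 tested genes on that list 3 rose, 1 fell and 18 did not pass, against 7.50% of all tested genes that rose and 12.1% that fell, with a median log2 fold change of 0.07. Slc25a22, a mitochondrial glutamate carrier, went from 4.44 ± 0.189 to 6.67 ± 0.595 FPKM (adjusted p = 0.00792), the lysosomal cystine exporter gene Ctns from 5.36 ± 0.267 to 7.67 ± 0.581 (adjusted p = 0.0101) and Slc25a39, a mitochondrial glutathione carrier, from 44.4 ± 2.58 to 57.4 ± 4.39 (adjusted p = 0.0181). Sfxn3, a mitochondrial serine carrier, fell from 37.8 ± 1.17 to 29.4 ± 1.26 (adjusted p = 0.0105). The number that rose was 1 without PBS 1, 2 without PBS 3 and 5 without L-proline 1, and none fell without PBS 3.

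**Figure D5:**
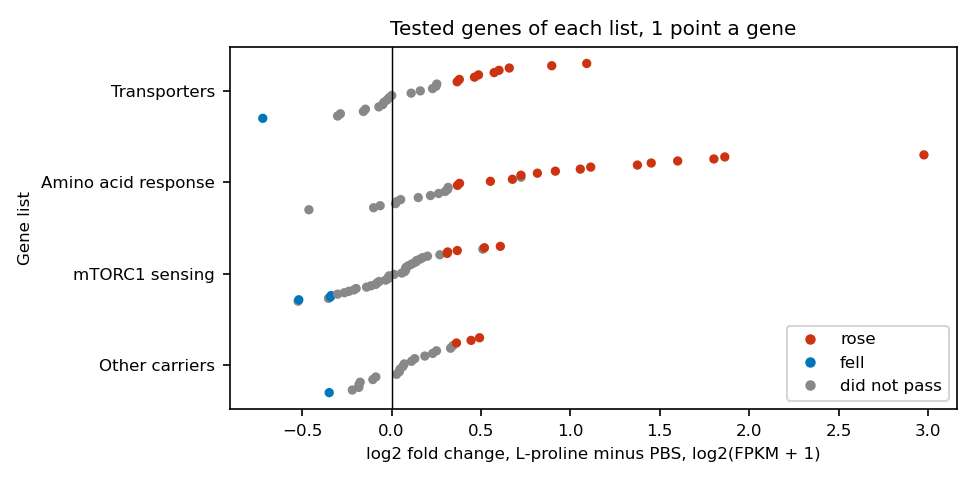
Each point is the log2 fold change of a tested gene (x axis, L-proline minus PBS on log2(FPKM + 1)) in the transporter set and 3 other lists (y axis), coloured by whether it rose, fell or did not pass. The amino acid response genes reach 2.98 with Trib3, the transporters reach 1.09 with Slc7a5, and the mTORC1 genes lie on both sides of 0.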

How the data were processed

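The authors deposited 1 table of FPKM values, per the file headers, with 1 column per library, and each column was matched to a sample by its title. HISAT2 and HTSeq 0.13.5, with build GRCm39, appear in the submitters' processing notes; their roles are not stated there. FPKM is scaled by library total and gene length, so each value is relative to the rest of its library. Fragment numbers were recovered from the values with library totals solved on 13 mitochondrial genes. They came out whole within 0.001 fragments for 14407 of 14408 genes.

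Genes with a mean of at least 1 FPKM were tested with limma 3.58.1 in R 4.3.3 (log2(FPKM + 1), empirical Bayes with trend, two-sided, Benjamini-Hochberg over 10500 genes), and the fold changes understate those of low genes. Recovery of known changes was tested on simulated data. The members, the lists and the rule for named genes (members past the threshold, on the proline carrier or amino acid response target list, of at least 10 FPKM or without overlap between groups, and up to 4 genes of every other list by smallest p) were chosen with earlier results of these data known. All tested members are named. Alternatives were the pseudocount, the filter, scaling, voom on recovered fragments, a robust variance, a replicate block and leaving out each library. A marker gene of the neural list is not reported here.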

Additional observations from a re-analysis of the deposited data

How the results depend on the processing

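Of the genes that rose, Slc7a5, Slc1a3, Slc1a4 and Slc7a1 passed in all 14 alternatives, and every gene that rose or fell kept its direction in all of them. Calls that were lost are given with their genes above. The number of members that fell, 1 on the deposited scale, was 0 with no filter and 2 with voom, where Slc38a6 also passed. Leaving out single libraries gave 5 to 9 members that rose and 0 to 2 that fell, 366 to 965 of all genes that rose and 508 to 1805 that fell (lowest without PBS 3, then PBS 1 with 392 and 584; 843 fell without PBS 2). It gave 13 to 17 amino acid response genes that rose and 0 to 1 that fell, 2 to 6 mTORC1 genes that rose and 0 to 5 that fell, and 1 to 5 other carriers that rose and 0 to 1 that fell. Genes with a change near 0 reversed sign without passing. With median-of-ratios scaling the log2 fold change became 6.92e-05 for Slc7a6, 0.0361 for Slc38a1 and 0.0033 for Slc38a9, and with quantile normalization 0.0460 for Slc6a17, 0.0531 for Slc7a6, 0.0467 for Slc38a1 and 0.0569 for Slc38a9. Leaving out single libraries gave -0.0692 to 0.00849 for Slc7a6, -0.0619 to 0.0435 for Slc38a1, -0.128 to 0.0489 for Slc38a9 and -0.0646 to 0.0712 for Slc38a10. Whether the replicate numbers pair the libraries is not settled by their values. Deviations of same-numbered libraries correlated at 0.651, 0.416 and -0.348, and those of differently numbered libraries at -0.750 to 0.525. With the replicate block 10 members rose and 1 fell, and 1 amino acid response gene fell against 0 without the block. For low genes, adding 0.1 in place of 1 FPKM enlarged the log2 difference of all 6 examined, for Slc7a11 to 1.15. With values this low a smaller addition enlarges the difference by arithmetic, so it is no check of these genes.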
